A study of Mus musculus with 8 samples.

Results

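The 10 genes described here make up the machinery by which a cell cuts its own proteins into peptides and shows them on MHC class I molecules. They were chosen by symbol: every probe of the array that the platform annotation assigns to Psmb8, Psmb9, Psmb10, Psme1, Psme2, Tap1, Tap2, Tapbp, B2m or H2-K1 was taken, which gave 16 of 25697 probes. All 10 genes had a probe detected on each of the 8 arrays, and they were 10 of the 8134 genes tested.

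The bead arrays (Illumina MouseRef-8 v2.0) each carried the liver RNA of 1 animal, from 4 wild type (WT) mice and 4 Snd1 knockout (KO) mice, all male and 8 to 12 weeks old. Exon 1 of Snd1 had been removed through loxP sites in ancestors of these mice, by a Cre driven by the CAG promoter. That gave a deletion in the germline, which KO mice inherit, so it is carried by every cell type and not by hepatocytes alone. WT and KO animals were littermates from heterozygous parents of a 129/Sv-derived line backcrossed to C57BL/6N, and RNA came from the left lobe of mice that had not been fasted. The comparison asks which liver transcripts differ when Snd1, an RNA-binding protein with nuclease-like domains and a Tudor domain, is missing.

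Proteasomes degrade tagged proteins in the cytosol and nucleus. Interferons induce 3 catalytic subunits, encoded by Psmb8, Psmb9 and Psmb10, that take the places of the standard subunits Psmb5, Psmb6 and Psmb7 in newly made particles, which are then called immunoproteasomes. Psme1 and Psme2 encode the alpha and beta chains of the PA28 cap, a ring that opens the end of the particle. The peptides are pumped into the endoplasmic reticulum by the transporter made of Tap1 and Tap2, and tapasin, encoded by Tapbp, holds the transporter next to an empty class I molecule. That molecule consists of a heavy chain, such as the one H2-K1 encodes, and the light chain beta-2-microglobulin, encoded by B2m. In liver, hepatocytes carry little class I at rest, and Kupffer cells (the resident macrophages), endothelial cells and lymphocytes carry more.

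The labels were checked first. Snd1 measured 6.77 to 6.88 on the log2 scale in the WT livers and 4.15 to 4.24 in the KO livers, where its probe was not above background on any array. Before normalization KO 1 and KO 4 were dimmer than the other arrays, with a mean intensity over all probes of 215 and 223, against 262 to 283 for WT, 290 for KO 2 and 281 for KO 3. Cell type markers fixed as lists gave a liver-like picture, with 7 of 9 hepatocyte markers on the array detected (Fgb and Tat were not, and the Alb probe was dim at 4.45 to 4.95). The values below are log2 intensity after background correction and quantile normalization, differences are KO minus WT with their standard error (SE), and p-values are from limma, adjusted over all 8134 genes by the Benjamini-Hochberg method. The word called is kept for genes whose adjusted p was under 0.05.

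Among the 10 genes 1 was called, Psmb9, and it was lower in KO livers. Over all genes tested 207 were called (96 higher and 111 lower in KO), which is 2.54% in either direction and 1.36% in the lower direction, and the 10 genes hold a single call. The difference was below 0 for 9 of the 10 genes and above 0 for Tapbp, with a median of −0.20 against −0.0014 over all genes. An unadjusted p under 0.05 was found for 4 of them (Psmb9, Tap2, B2m and Tapbp), and for 17.4% of all genes tested. The WT and KO values did not overlap for 2 of the 10, Psmb9 and Tap2, and over all genes 10.8% did not overlap.

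**Figure D1:**
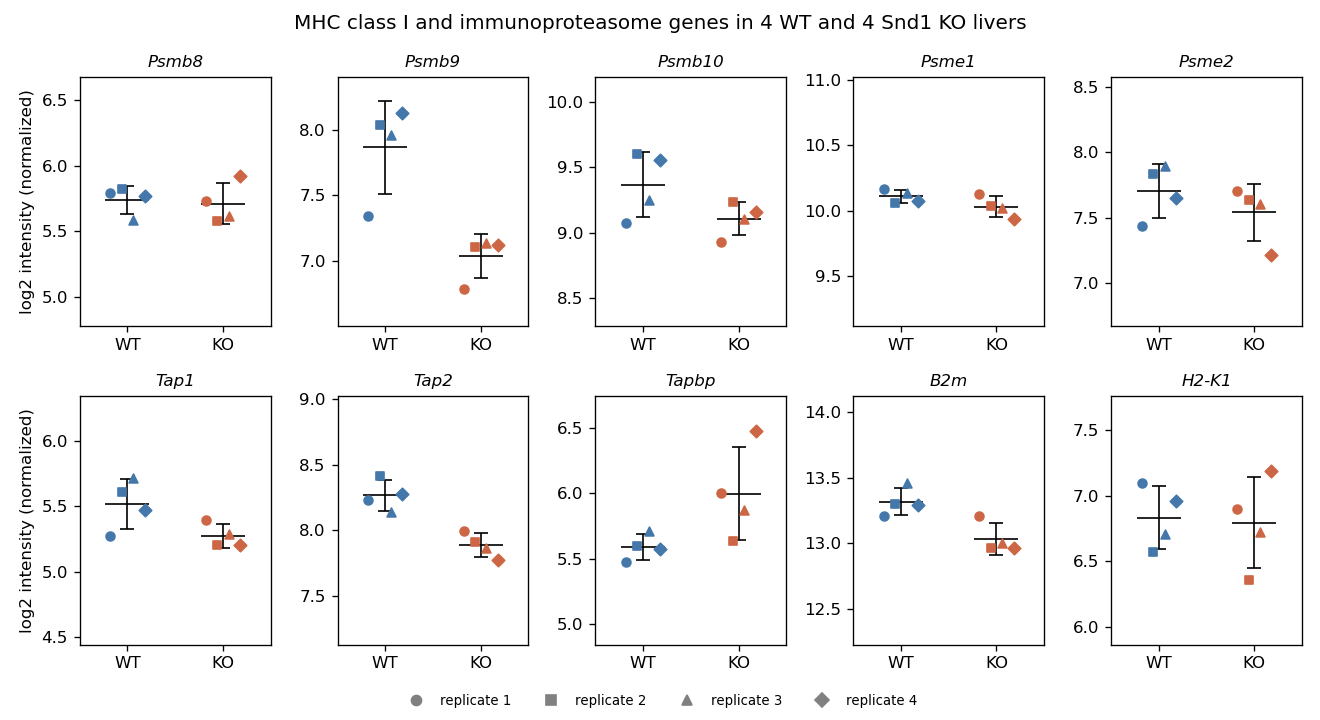
Normalized log2 intensity of the 10 genes in each of the 4 WT and 4 KO livers. Each panel is 1 gene, the symbol shape gives the replicate number, the horizontal bar is the group mean and the whiskers are the SD, and all panels span the same number of log2 units. The KO points of Psmb9 (6.79 to 7.13) lie below every WT point (7.34 to 8.12), and those of Tap2 (7.77 to 8.00) lie below every WT point (8.14 to 8.42).

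Psmb9, the immunoproteasome subunit that replaces Psmb6, was lower in KO livers by 0.83 ± 0.17 on the log2 scale (−0.83 as KO minus WT, SE, n = 4 per group, limma adjusted p = 0.0362), or 43.7% lower in intensity. Its level was 7.34, 8.03, 7.96 and 8.12 in WT 1 to WT 4 and 6.79, 7.11, 7.13 and 7.12 in KO 1 to KO 4. Every KO liver lay under the lowest WT liver, WT 1, which itself sat well under the other 3 WT livers. The mean was 7.86 ± 0.36 (SD) in WT and 7.04 ± 0.17 in KO, so the difference exceeded the spread of either group. On the scanner's own scale, with no correction, the probe read 247, 331, 320 and 356 in WT and 151, 237, 239 and 185 in KO. The separation was thus present before normalization as well, and the lowest readings were those of the dim arrays KO 1 and KO 4. With only KO 2 and KO 3 set against WT, the arrays as bright as WT, the difference was −0.75 (adjusted p = 0.0991). The call was lost in 6 of the 8 fits that each left out 1 liver (adjusted p 0.060 to 0.126 without WT 2, WT 3, WT 4, KO 2, KO 3 or KO 4) and held without WT 1 or KO 1, while the difference stayed between −0.9996 and −0.74. It was also lost without the background correction (−0.59, adjusted p = 0.0522).

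Psmb8, the subunit that replaces Psmb5, did not show such a difference. It measured 5.79, 5.82, 5.59 and 5.77 in WT and 5.73, 5.58, 5.62 and 5.92 in KO. The KO values enclosed the WT values on both sides, and the difference was −0.03 ± 0.11 (adjusted p = 0.937), with a 95% interval of −0.28 to 0.23. For the normalized value of this probe, that interval leaves out a difference as large as that of Psmb9 but still allows one of the size seen for Tap1. The probe was dim, at 110 to 131 on the scanner's scale, where differences are compressed. The interval therefore sets no bound on the change of the Psmb8 transcript. Psmb10, which replaces Psmb7, measured 9.07, 9.60, 9.25 and 9.55 in WT and 8.93, 9.23, 9.10 and 9.16 in KO. WT 1 again was the lowest WT liver and lay among the KO values, and the difference of −0.26 ± 0.14 did not pass the test (adjusted p = 0.369). A further, dimmer probe of Psmb10 differed by −0.04.

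The change of Psmb9 was set against that of 3 other genes within the same livers: the 2 partner subunits and Tap1, its neighbour in the genome. These ratios were chosen after the value of Psmb9 had been seen and are a description. The log2 ratio of Psmb9 to Psmb8 fell by 0.80 from 2.12 ± 0.39 in WT to 1.32 ± 0.24 in KO (SD, n = 4 per group). The ratio of Psmb9 to Psmb10 fell by 0.57 and that of Psmb9 to Tap1 fell by 0.58, and WT and KO livers did not overlap in any of the 3. All 3 ratios share the value of Psmb9 and so describe its difference again, and the probes of Psmb8 and Tap1 are dim, so no test is given. The within-liver ratio leaves out whatever shifts all probes of an array alike, though not differences in the response of single probes.

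Psmb9 and Tap1 lie head to head on mouse chromosome 17 with Psmb8 and Tap2 next to them, in the order Psmb9, Tap1, Psmb8, Tap2. In the RefSeq annotation of GRCm38.p6 the start sites of Psmb9 (minus strand) and Tap1 (plus strand) are 225 bases apart, at chr17:34187331-34187555. The stretch is printed because both genes are transcribed away from it and only Psmb9 was called. Tap1 was lower in KO as well (−0.24), on a dim probe (102 to 125 on the scanner's scale), where differences are compressed. The calls alone thus do not show that the genes on either side changed unequally. The stretch reads on the plus strand, with the GC box (GGGCGG or its reverse complement) in capitals:
Psmb9-Tap1: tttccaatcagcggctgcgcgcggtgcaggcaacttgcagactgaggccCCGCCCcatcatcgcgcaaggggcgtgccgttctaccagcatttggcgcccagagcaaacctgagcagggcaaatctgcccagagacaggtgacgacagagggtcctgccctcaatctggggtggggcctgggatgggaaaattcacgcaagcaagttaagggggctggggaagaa
This stretch held 1 GC box and no match to the interferon-stimulated response element (ISRE, letters GAAANNGAAA), the gamma-activated site (GAS, TTCNNNGAA) or the NF-kB consensus, searched on both strands. These letters are descriptions of the window and not measured sites.

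Tap2, a subunit of the peptide transporter, had the next lowest p of the 10 genes (unadjusted p = 0.00489). It measured 8.23, 8.42, 8.14 and 8.28 in WT and 8.00, 7.91, 7.86 and 7.77 in KO. All 4 KO livers lay under all 4 WT livers, with the gap smaller than that of Psmb9 in log2 units, and KO 4 was the lowest. The difference was −0.38 ± 0.11 and missed the threshold (adjusted p = 0.0983), and it passed with values that had no background correction (−0.30, adjusted p = 0.0464). Tap1, the other subunit of the transporter, measured 5.27, 5.61, 5.71 and 5.47 in WT and 5.40, 5.20, 5.29 and 5.20 in KO. WT 1 lay among the KO livers, and the difference of −0.24 ± 0.12 did not pass the test (adjusted p = 0.334).

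B2m, the light chain that every class I molecule needs, was a bright gene on these arrays. It measured 13.21, 13.30, 13.46 and 13.29 in WT and 13.21, 12.96, 13.00 and 12.96 in KO. KO 1 equalled WT 1 after normalization, and the other 3 KO livers lay under all WT livers. The difference was −0.28 ± 0.11 (95% interval −0.52 to −0.04, adjusted p = 0.208). Another B2m probe of like brightness differed by −0.17 (limma adjusted p = 0.454, over all kept probes), so both probes pointed down and neither was called.

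H2-K1, a classical class I heavy chain, measured 7.09, 6.57, 6.70 and 6.96 in WT and 6.90, 6.36, 6.72 and 7.19 in KO. The livers of both groups were interleaved, with KO 4 the highest and KO 2 the lowest, and the difference was −0.04 ± 0.18 (adjusted p = 0.944). The class I heavy chain genes are close paralogs whose probes can bind each other's transcripts, so the value of H2-K1 is uncertain as that of a single gene. The 95% interval of its difference ran from −0.45 to 0.37.

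Tapbp (tapasin) was the member with a difference above 0. It measured 5.48, 5.60, 5.71 and 5.57 in WT and 6.01, 5.64, 5.88 and 6.47 in KO. KO 1, KO 3 and KO 4 lay above all WT livers and KO 2 lay among them. The difference of 0.41 ± 0.17 did not pass the test (adjusted p = 0.234), and it rested on a spread of 0.35 (SD) in KO against 0.10 in WT. The probe was dim, at 120 to 125 on the scanner's scale in WT and 118, 131, 142 and 146 in KO. KO 1, above every WT liver after normalization, had been below every WT liver before it. A further probe, assigned to another Tapbp transcript, differed by 0.18.

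The PA28 cap showed small differences that did not pass the test. Psme2, the beta chain, measured 7.44, 7.83, 7.90 and 7.65 in WT and 7.71, 7.63, 7.60 and 7.22 in KO. Only KO 4 lay under all WT livers, and the difference was −0.16 ± 0.15 (adjusted p = 0.603). Psme1, the alpha chain, measured 10.17, 10.06, 10.13 and 10.07 in WT and 10.13, 10.04, 10.02 and 9.93 in KO. Here KO 1 lay among the WT livers and the other KO livers just below them. The difference was −0.08 ± 0.10 (95% interval −0.29 to 0.14, adjusted p = 0.726) and a further probe of Psme1 gave −0.09, the closest pair of values among the 4 genes with 2 probes kept.

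**Figure D2:**
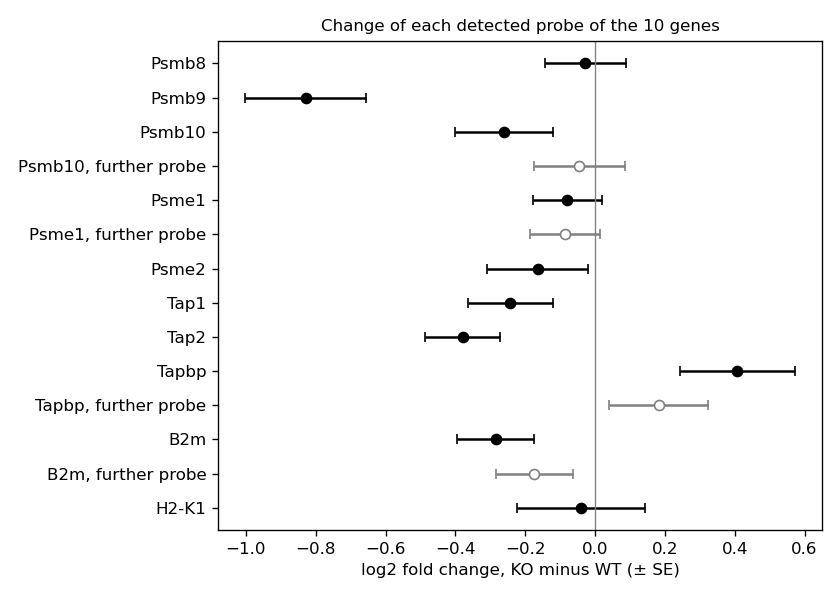
Log2 fold change (KO minus WT, horizontal axis) with its SE for the 14 probes of the 10 genes that passed the detection filter. Filled points are the probes used for the gene and open points are further probes of the same gene. Psmb9 lies at −0.83, Tap2 at −0.38 and the Tapbp probes at 0.41 and 0.18.

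Read liver by liver, the 10 genes did not shift as a block. The mean deviation of the 10 genes from their WT means was −0.12, 0.05, 0.02 and 0.04 in WT 1 to WT 4 and −0.15, −0.26, −0.21 and −0.14 in KO 1 to KO 4. By this mean all 4 KO livers were under all WT livers, but WT 1 was close to KO 4 and KO 1. Psmb9 weighs on the mean, with a deviation of −0.53 in WT 1, −1.08 in KO 1 and −0.75 in KO 4. By the median of the 10 deviations the groups overlapped, with −0.11 in WT 1 and −0.06 in KO 1. The number of genes below their WT mean was 7, 3, 4 and 5 of 10 in the WT livers and 6, 9, 9 and 7 in the KO livers. KO 2 and KO 3, the bright KO arrays, had 9 each, with Tapbp the exception in both. WT 1 was the lowest WT liver for Psmb9, Psmb10, Psme2, Tap1, Tapbp and B2m, and the highest WT liver for Psme1 and H2-K1.

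Across the 8 livers the standardized values of the 10 genes were averaged into 1 profile, and each gene was compared with it by Pearson correlation, as a description over livers that share the 2 groups. B2m (0.91), Tap1 (0.86), Tap2 (0.85) and Psmb9 (0.83) followed it most closely. Psmb10 (0.61), Psme2 (0.52) and Psme1 (0.45) followed it less, Psmb8 (0.26) and H2-K1 (0.14) hardly, and Tapbp ran against it (−0.38). The profile holds each of these genes as 1 of its 10 parts. The 5 other genes of the array with the closest profile were Slc6a9, a glycine transporter (0.986), Bik, a pro-apoptotic factor (0.984), Dio1, the liver's type I iodothyronine deiodinase (0.980), Nxpe2 (0.973) and Cobl, an actin nucleator (0.973). Each was called lower in KO, and Dio1 differed by −2.61 ± 0.45 (adjusted p = 0.0184). Of the 10 genes in the profile 9 differed below 0, so genes picked for likeness to it are lower in KO by that choice. Their calls are therefore not a further result.

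The windows around the start sites were read for the same 4 motifs in RefSeq promoter sequence of GRCm38.p6, from 250 bases before to 50 after the start. Of the 10 genes 9 had such a window. An ISRE match was found for B2m and Psme1, 2 of the 9, against 3.44% of 32851 windows of the same length. A GAS match was found for Psmb8 (8.3% of all windows), an NF-kB match for B2m and H2-K1 (8.46%), and a GC box for Psmb9, Tap1, Psme1, Psme2 and Tapbp (35.7%). Psmb10 had none of the 4. Interferon and NF-kB signalling act on many immune genes through the ISRE, the GAS and the NF-kB consensus. As examples, 1 stretch upstream of the start site is shown for each, with the matched letters in capitals. The capitals mark 1 match for B2m and Psmb8 and cover 2 overlapping matches for H2-K1. Shown are for B2m the ISRE at chr2:122147533-122147572 (plus strand), for Psmb8 the GAS at chr17:34198083-34198121 (plus strand) and for H2-K1 the NF-kB consensus at chr17:34000433-34000473 (minus strand):
B2m: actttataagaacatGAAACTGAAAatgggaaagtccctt
Psmb8: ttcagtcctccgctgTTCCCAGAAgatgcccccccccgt
H2-K1: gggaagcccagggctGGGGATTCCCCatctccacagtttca
The NF-kB match of B2m lies within the printed stretch in lower case, and the ISRE match of Psme1, which begins after the start site, is not printed. The 4 genes with a match to these 3 motifs differed by −0.28 (B2m), −0.03 (Psmb8), −0.04 (H2-K1) and −0.08 (Psme1), and none was called. Over all genes tested 2.54% were called, so 4 genes are too few to read anything from that count.

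The rest of the pathway was read from fixed lists, and 0 genes were called in 4 of the 5. Over all genes tested 2.54% were called and 17.4% had an unadjusted p under 0.05. In lists this short a count of 0 called is near the share of all genes. Of the standard proteasome and its assembly factors 0 of 37 were called (limma, with 3 at an unadjusted p under 0.05), and the median difference was −0.05. Psmb6, the subunit that Psmb9 replaces, differed by −0.11 ± 0.14 (adjusted p = 0.724), Psmb5 by −0.33 ± 0.23 (adjusted p = 0.481) and Psmb7 by 0.05 ± 0.11 (adjusted p = 0.868). The lowest p in the list belonged to Psmg2, an assembly chaperone (−0.33, adjusted p = 0.111), followed by Psmb2 (−0.28) and Sem1 (−0.62). Of the other class I heavy chains 0 of 11 were called (1 at an unadjusted p under 0.05), with a median of −0.01 and 8 below 0. This list mixes H2 genes with class I-like genes, Cd1d1 (0.22), Azgp1 (0.05), Fcgrt (−0.01) and Hfe (−0.01). Its median is thus not that of the H2 heavy chains alone. H2-D1, the other classical heavy chain beside H2-K1, differed by −0.25 ± 0.14 (adjusted p = 0.383), H2-Bl by 0.29 and the secreted H2-Q10 by −0.22, each open to binding by paralogs. The probes of H2-Bl (4.29 to 4.93) and H2-Q10 (4.20 to 4.66) were near background, each detected on 6 of 8 arrays, so their differences are uncertain. The H2-D1 probe, detected on all 8, was dim as well (5.37 to 5.97), and its difference is less certain than those of bright probes.

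Peptide loading and trimming genes showed 0 of 11 called (3 at an unadjusted p under 0.05) but a difference above 0 for 10 of them, with a median of 0.16. Again, 2.54% of all genes were called and 17.4% had an unadjusted p under 0.05. Tapbp, with its 0.41, pointed the same way as most of this list, and the Tap1 and Tap2 values lay below 0. None of Tapbp, Tap1 and Tap2 was called, and the probes of Tapbp and Tap1 were dim, so no contrast is drawn from these directions. Pdia3, the disulfide isomerase bound to tapasin, differed by 0.36 ± 0.12 (adjusted p = 0.165) with no overlap between groups, Sar1b, a GTPase of vesicle export, by 0.27, and Thop1, a peptidase of the cytosol, by −0.41. Of the regulators of class I 0 of 16 were called (0 at an unadjusted p under 0.05), with a median of 0.01. Nlrc5, the class I transactivator, differed by −0.04 ± 0.11 and Irf1, a transcription factor of the interferon response, by 0.01 ± 0.22, while the lowest p belonged to Ifngr1 (0.24), Stat2 (0.26) and Nfyc (0.19). Nlrc5 and Irf1 were named for their role and not by the rule for named genes.

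Interferon-inducible genes outside the 10 held 3 called of 30, all lower in KO (1.36% of all genes were called lower). An unadjusted p under 0.05 was found for 8 (17.4% of all genes), the median was −0.09 and 13 genes were above 0. The 3 called were Ifi47, an interferon-gamma-induced GTPase (−0.79 ± 0.15, adjusted p = 0.0227), Irf7, a transcription factor of the type I interferon response (−0.65 ± 0.13, adjusted p = 0.0337), and Dhx58, an RNA sensor (−0.57 ± 0.12, adjusted p = 0.0338). WT and KO livers did not overlap for these 3 and for 3 further genes of the list that were not called, Parp14 (−0.34), Oas2 (−0.39) and Igtp (0.35), of which Igtp was higher in every KO liver. That is 6 of 30, beside 10.8% of all genes, and these 3 further genes were named after their values were seen. The probes of Irf7 (5.14 to 6.18) and Oas2 (4.97 to 5.80) were dim, so their differences are less certain. The count of 3 fell to 0 without WT 2, WT 3, WT 4 or KO 3 and to 1 without KO 2 or KO 4.

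**Figure D3:**
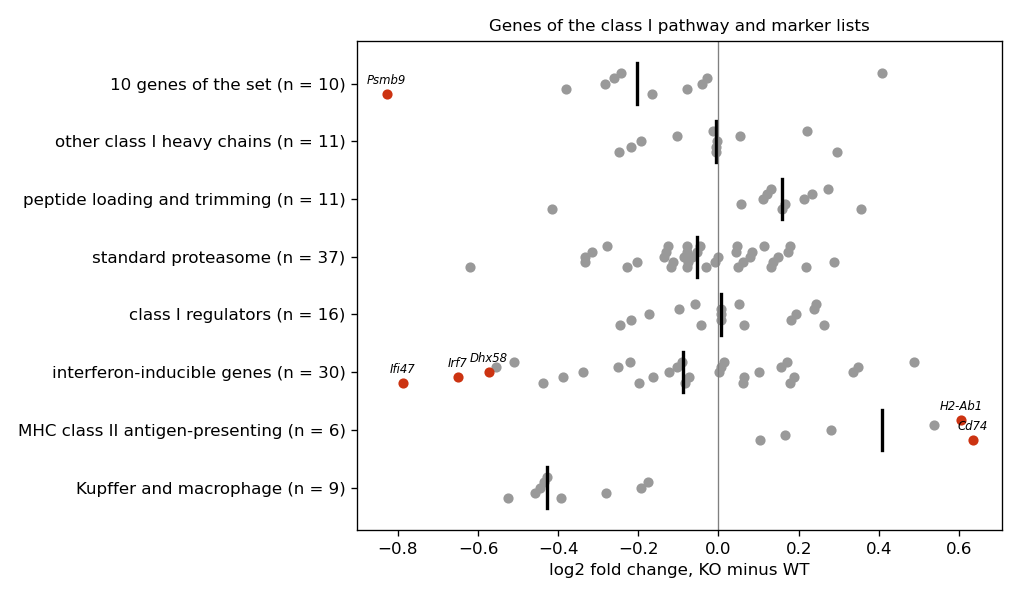
Log2 fold change (KO minus WT, horizontal axis) of each tested gene in the 10-gene set, 5 pathway lists and 2 marker lists, with the number of genes in parentheses. Each point is a gene, red points were called and the black bar is the median of the list. Psmb9 is the called gene of the set, and the 3 called interferon-inducible genes lie at −0.79 to −0.57.

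Markers of cells that carry much class I were measured beside these genes, since in bulk liver fewer cells of a type and less RNA per cell cannot be told apart. Of the Kupffer and macrophage markers 0 of 9 were called, but all 9 differed below 0, with a median of −0.43 (C1qb −0.53, adjusted p = 0.117, and C1qa −0.44). Their summed linear intensity was 2266 to 3746 in WT and 2078 to 2789 in KO, and Cd5l was not detected. The MHC class II genes went the other way, with 2 of 6 called higher, beside 1.18% of all genes (Cd74 0.63, adjusted p = 0.0276, and H2-Ab1 0.61, adjusted p = 0.0314) and a summed intensity of 702 to 966 in WT and 1122 to 1215 in KO. Dendritic markers were not detected on enough arrays to be tested (0 of 7), nor were T and NK markers except Prf1 (−0.29) and Cd8b1 (0.10) or B cell markers except Cd79b (0.23). Cd3d, Cd3e, Cd3g and Ptprc were each detected on 2 arrays at most in either group. Of pan-leukocyte markers 0 of 4 were called (Cd52 −0.91, Laptm5 −0.11), as were 0 of 4 neutrophil markers (S100a8 −1.22, Prtn3 −1.14), 0 of 7 sinusoidal endothelial markers (Lyve1 0.96, Stab2 −0.24) and 0 of 7 hepatocyte markers (Cps1 0.50, Alb 0.16). In marker lists this short a count of 0 is near the 2.54% called over all genes. The part of any of these cell types in the difference of Psmb9 was not tested.

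**Figure D4:**
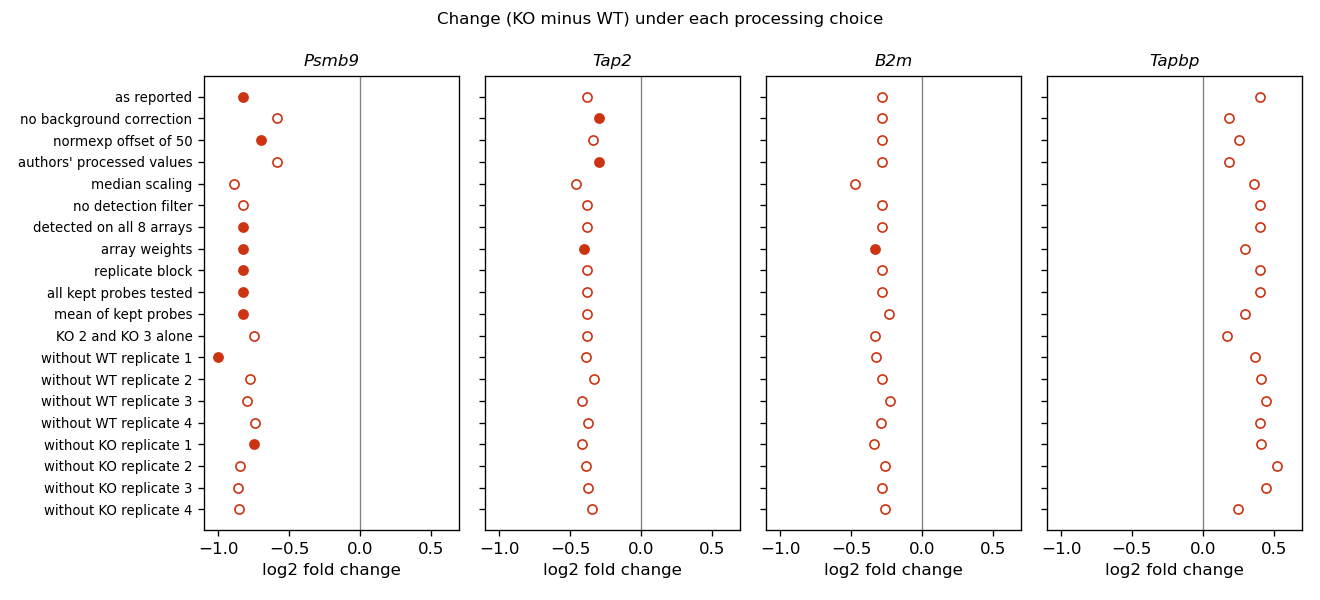
Log2 fold change (KO minus WT, horizontal axis) of Psmb9, Tap2, B2m and Tapbp under each processing choice and with each liver left out in turn (vertical axis). Filled points were called at an adjusted p under 0.05 and open points were not. Psmb9 stays between −0.9996 and −0.59 and is called under some choices, and the sign of all 4 genes is kept throughout.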

How the data were processed

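Liver RNA of 4 WT and 4 Snd1 KO mice was measured on bead arrays, grouped by the titles of the samples. Deposited by the authors were probe intensity on a linear scale without normalization (75.2 to 22138), a detection p-value per probe and array, and a table of processed intensity with array medians of 92.8 to 92.9. Per the methods, normalized intensity was compared by a 2-group test in Chipster, and for the liver arrays the normalization and the form of that test were not found in the labels or methods. In R 4.3.3 with limma 3.58.1 the intensity was background-corrected with normexp (control moments from detection p, offset 16), quantile-normalized and put on the log2 scale. The offset compresses changes of dim probes. Named probes detected (p under 0.05) on 4 or more of the 8 arrays were kept (10945), and the brightest probe stood for each of 8134 genes. WT and KO were compared with lmFit and eBayes (2-sided) with Benjamini-Hochberg adjustment. All 10 genes are named, with Snd1, H2-D1, the 3 standard catalytic subunits, every called gene of a pathway list and otherwise up to 3 with the lowest p, 2 of each marker list, and the 5 genes most alike. The 10 genes and the lists were chosen with earlier results of these data known, so no p was computed over them. The analysis was tested on simulated data. The methods call the arrays biological quadruplicates, and 4 per group limit the precision. The array build is not named, so coordinates are those of the RefSeq promoter table (GRCm38.p6).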

Additional observations from a re-analysis of the deposited data

Results flagged for a closer look

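Of 20 groups of 4 livers over the 10 genes 1 held a value apart from the rest by Dixon's test, and of 88 groups over all named genes 3 did. Chance gives about 1 in 20. Psmb9 in KO 1 measured 6.79, against 7.11 to 7.13 in the other KO livers. Psmb6, the standard subunit that Psmb9 replaces, measured 10.05 in KO 4 against 10.54 to 10.63 in the other KO livers. Lyve1, a marker of sinusoidal endothelium, measured 6.33 in KO 1 against 7.14 to 7.24 in the other KO livers. KO 1 and KO 4 were the arrays with the lowest mean intensity before normalization, 215 and 223, and the part of array brightness in these values was not tested. Without KO 1 the difference of Psmb9 was −0.75 (adjusted p = 0.0390).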

How the results depend on the processing

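Over 19 alternatives per gene, the direction was kept by 8 of the 10 genes. Psmb8 (−0.10 to 0.017 with 1 liver left out) reversed to 0.017 without KO 2 and 0.0027 without KO 3, and H2-K1 (−0.17 to 0.10) to 0.05 without WT 1, 0.0027 without WT 4 and 0.10 without KO 2, none of them called. The number of the 10 genes called fell from 1 to 0 with median scaling, without the detection filter and with KO 2 and KO 3 alone, and was 4 with array weights (Psmb9, Tap2, Tap1 and B2m). Leaving out 1 liver gave 0 to 1. The adjusted p of Psmb9 ran from 0.0013 to 0.126 over all alternatives. Its call was lost on uncorrected intensity (−0.59, 0.0522), on the authors' processed intensity (−0.59, 0.0520), with median scaling (−0.89, 0.103), without the detection filter (−0.83, 0.0867) and with KO 2 and KO 3 alone (−0.75, 0.0991). Tap2 was called on uncorrected (−0.30) and on processed intensity (−0.30) and with array weights (−0.40). The median of the 10 genes was −0.10 on uncorrected and −0.11 on processed intensity, and −0.29 to −0.14 with 1 liver left out.

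Over all genes 97 were called with median scaling (14.4% of them higher, against 46.4% as reported), 96 without the detection filter, 2190 with array weights and 41 (without WT 3) to 518 (without KO 1) with 1 liver left out. Array weights gave 2 calls among other heavy chains, 4 in peptide loading, 7 in the standard proteasome, 2 among regulators and 9 among interferon-inducible genes. The standard proteasome had 1 call each on uncorrected and on processed intensity, with an offset of 50 and without the detection filter. Interferon-inducible genes had 0 calls with median scaling, 1 without the filter and 0 to 3 with 1 liver left out. The causes were not tested.

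Replicate numbers did not pair the livers (correlations of deviations 0.0889, −0.0876, 0.117 and −0.00984, with 2 of 8 livers closest to their own number). With replicate number as a block 92 of all genes were called, 1 of the 10 and 0 interferon-inducible genes.

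The dim probes of Tap1, Tapbp and Psmb8 sit near background, where compressed differences are less reliable than those of B2m or Psme1.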

Other observations

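Of the 16 probes 2 entered no comparison. A dim probe of B2m was not detected on any array, at 82.6 to 94.8 on the scanner's scale, while the other B2m probes read 6317 to 11712. A further probe of H2-K1 was detected on 1 array, of the KO group.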
